A study of Mus musculus with 20 samples.

Results

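Prox1, Lyve1, Pdpn, Flt4, Reln, Mmrn1 and Ccl21a are 7 genes by which lymphatic endothelial cells are commonly recognised. They were read in all 20 RNA-seq libraries of CD31-positive cells sorted from mouse mammary tumours. These are 7 of the 46983 gene IDs in the deposited tables. They were taken by name and not by a cut on their values, but with earlier results of these data known. Each was found under 1 ID. All 7 passed the filter on low counts that left 14875 genes for testing.

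The tumours were grown from E0771 cells, a mouse mammary carcinoma line. C57BL/6J hosts received them in the mammary fat pad and were kept until the tumour measured 500 mm3. Of the host backgrounds, 3 are labelled deficient in CD4 T cells. These are CD4KO (3 libraries), TCRKO (3 libraries) and Tie2Cre_H2Abf (4 libraries), the last carrying a floxed H2-Ab allele together with the Tie2Cre transgene. The other 3 backgrounds are labelled competent: CD8KO (3 libraries), Tie2Cre without the floxed allele (3 libraries) and wild type (WT, 4 libraries). Tie2Cre is a Cre recombinase known to be active in both endothelial and blood cells, so the H2-Ab deletion need not be confined to endothelium. The labels give no host age. They also do not state whether the libraries of a background came from different mice, and every p-value therefore refers to the spread between libraries, which may be technical.

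CD31 (Pecam1) is a surface protein of both blood and lymphatic endothelium, so a CD31 sort can hold cells of either kind. Lymphatic endothelium forms the vessels that drain fluid and immune cells from tissue. Its identity is set and kept by the transcription factor Prox1, and its growth is driven by the ligand Vegfc through the receptor Flt4. Several genes of the set are not limited to lymphatic cells: Lyve1 is also known from some tissue macrophages, Pdpn from fibroblasts and epithelium, Mmrn1 from platelets and Flt4 from sprouting blood vessels. The question was whether the genes vary together by library, as a lymphatic share of the sort would.

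Libraries held 1543847 to 11478902 expected counts. Protein-coding genes took 12.8% to 81.0% of these, the highest share by far in CD8KO_9752. WT_9771 and Tie2Cre_9501 had the lowest totals, and they were the highest libraries for 16.8% and 14.1% of all tested genes. They were set aside as a pair for being rich in satellite repeats, a content not shown here. Results that rest on them are given without them too. Levels are CPM, counts relative to a library size scaled by TMM, a normalization that sets most genes equal between libraries. A floor of 3 counts stood at 0.128 CPM in CD8KO_9752 and at 2.46 CPM in WT_9771, and such floors cover counting error only. Pecam1 itself had a median of 1028 CPM (434.9 to 1377), and the 12 genes of the blood endothelial list, such as Cdh5 and Eng, summed to 2932 to 10443 CPM. Of the defining markers of other cells, the epithelial genes Epcam and Krt18 were at 0 in 19 and 17 libraries, and Col1a1, a fibroblast collagen, in 10. Other genes of these lists were higher. Mmp2 and Col6a1 of the fibroblast list had more than 3 counts in 18 and 15 libraries, and the epithelial gene Krt8 reached 15.4 CPM. The macrophage list summed to 111 to 1004 CPM.

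Ccl21a, a chemokine that guides dendritic cells and T cells towards lymphatic vessels, is the member whose counts depend on how reads were shared between near-identical genes. Ccl21b, Gm10591, Gm13304 and Gm21541, all on chromosome 4 as Ccl21a is, each hold 83.3% of the 31-base words of its 402-base coding sequence. Each of the 4 copies differs from Ccl21a at T84A and C194T, counted from 1 at the A of the start codon. The stretches around both positions (coding bases 64 to 104 and 174 to 214, from the GENCODE transcripts of GRCm38) are shown because only reads across the base in capitals can tell the copies from Ccl21a within the coding sequence.
Ccl21a around base 84: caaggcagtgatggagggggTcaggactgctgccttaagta
copies around base 84: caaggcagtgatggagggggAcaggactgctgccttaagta
Ccl21a around base 194: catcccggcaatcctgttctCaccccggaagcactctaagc
copies around base 194: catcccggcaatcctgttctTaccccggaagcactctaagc
Of the copies, Ccl21b and Gm10591 had 0 counts in every library, while Gm13304 held 265 counts and Gm21541 held 120 over all libraries, against 1443 for Ccl21a. RSEM, the authors' counting tool, gave Ccl21a a posterior standard deviation above 0 in 19 libraries, up to 8.69 counts. For the other 6 genes this uncertainty was 0 everywhere, apart from 0.27 counts for Prox1 in 1 library. Results on Ccl21a are therefore also given with the copies added.

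Flt4 was by far the most abundant member. Of the other 6 genes, Lyve1 and Mmrn1 had more than 3 counts in 19 and 18 libraries, Prox1, Reln and Ccl21a in 15 each and Pdpn in 6. Flt4 had a median of 120.1 CPM over the 20 libraries, against 8.11 CPM for Lyve1, 3.41 CPM for Mmrn1, 3.21 CPM for Ccl21a, 3.20 CPM for Prox1, 1.65 CPM for Reln and 0.0427 CPM for Pdpn. On the per-length scale (TPM, as a percentage of Pecam1 in the same library), the median levels were 5.53% for Flt4, 1.49% for Ccl21a, 1.07% for Lyve1, 0.313% for Mmrn1, 0.106% for Prox1, 0.0665% for Reln and 0.0116% for Pdpn. Neighbours in this order overlapped over the libraries: Flt4 ran from 0.0866% to 9.14%, Ccl21a from 0% to 16.5% and Lyve1 from 0.0554% to 2.20% of Pecam1. Without Flt4, the 6 other members summed to 8.18 CPM in TCRKO_9767 and to 88.2 CPM in CD8KO_9753.

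**Figure D1:**
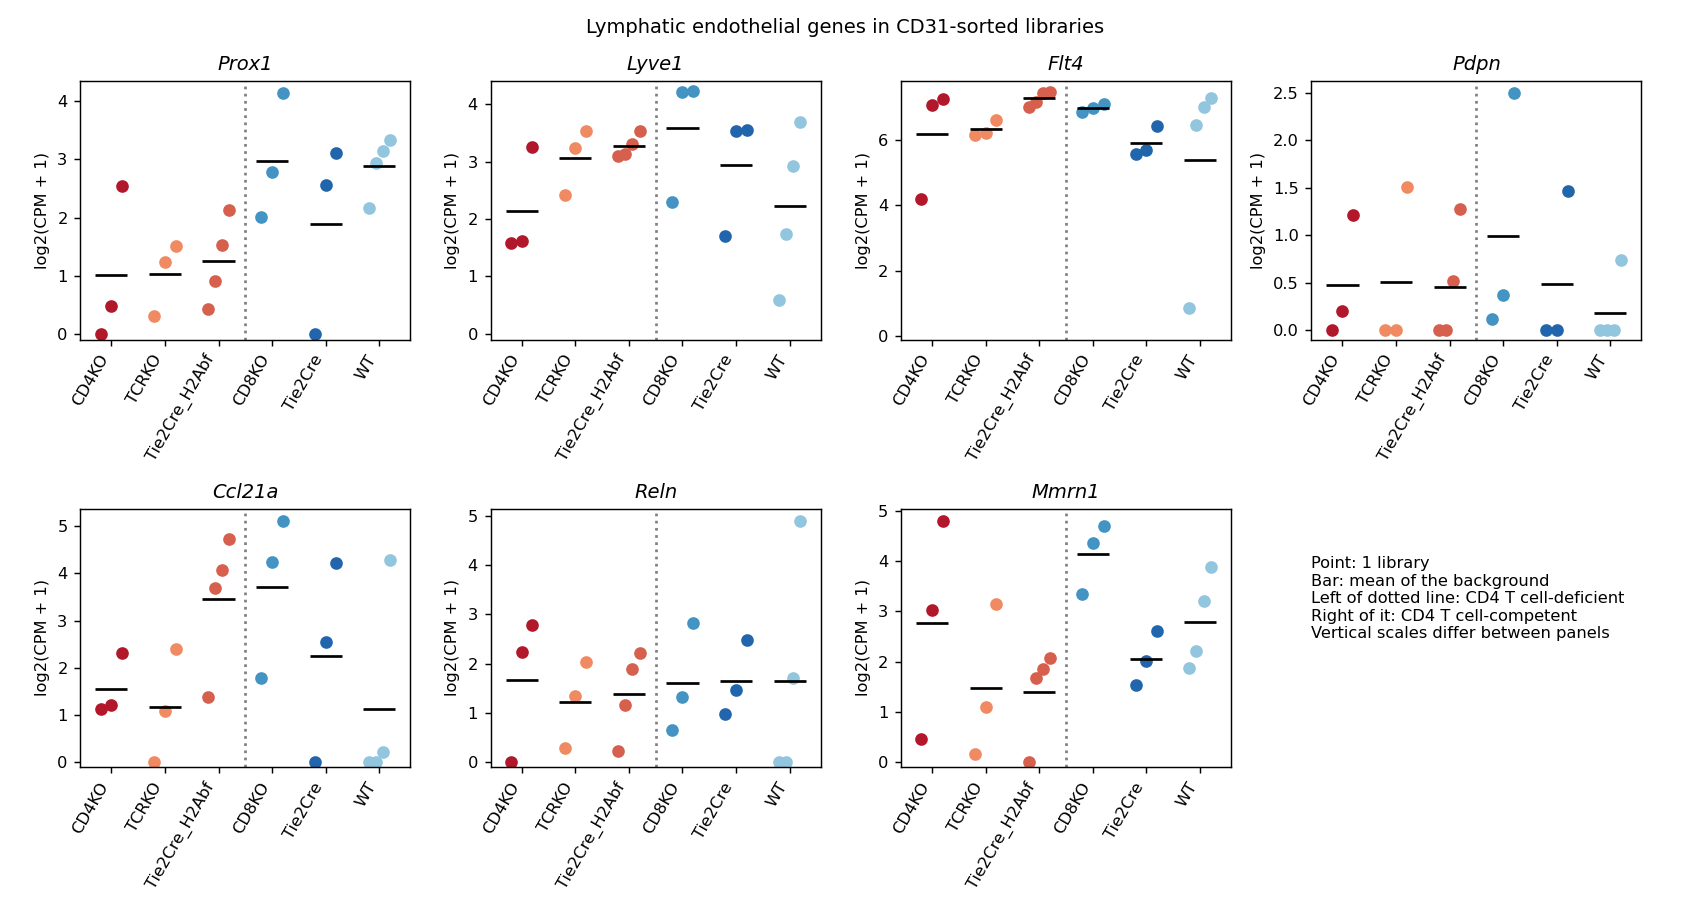
Level of each lymphatic endothelial gene (log2(CPM + 1), vertical scales differ) in the 20 libraries, by host background. Points are libraries, bars are background means, and backgrounds left of the dotted line are CD4-deficient; Flt4 lies high in every library but WT_9771 (0.821 CPM) and CD4KO_9768 (17.2 CPM), while Lyve1 lies close to 0 in WT_9748 alone and the other 5 genes have 1 or more libraries at 0.

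Prox1 (chromosome 1, 190118035 to 190170714, minus strand, GRCm38), the transcription factor of lymphatic identity, was detected above 3 counts in 15 libraries. In the CD4-deficient backgrounds it stood at 0, 0.384 and 4.81 CPM in CD4KO, at 1.85, 0.238 and 1.36 CPM in TCRKO, and at 0.885, 0.339, 3.38 and 1.88 CPM in Tie2Cre_H2Abf. In the competent backgrounds it stood at 3.03, 16.6 and 5.92 CPM in CD8KO, at 4.91, 0 and 7.68 CPM in Tie2Cre, and at 3.48, 7.86, 9.03 and 6.63 CPM in WT. The competent libraries all lay above 3 CPM except Tie2Cre_9502, where no Prox1 was counted among 8820172 counts. Of the deficient libraries only CD4KO_9770 and Tie2Cre_H2Abf_9583 reached that level.

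Lyve1 (chromosome 7, 110850607 to 110863239, minus strand), a receptor for hyaluronan, had counts in every library. It stood at 8.52, 2.05 and 1.998 CPM in CD4KO, at 10.6, 8.43 and 4.32 CPM in TCRKO and at 8.85, 7.79, 10.5 and 7.53 CPM in Tie2Cre_H2Abf. It stood at 3.89, 17.6 and 17.6 CPM in CD8KO, at 2.27, 10.6 and 10.7 CPM in Tie2Cre and at 0.497, 2.34, 6.57 and 11.9 CPM in WT. The Tie2Cre_H2Abf libraries were close together, and WT_9748 held 3 counts. The competent libraries spread more widely and included all deficient values within their range.

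Flt4 (chromosome 11, 49609263 to 49652739, plus strand), the receptor of Vegfc, stood at 17.2, 151 and 133.9 CPM in CD4KO, at 70.6, 96.1 and 72.5 CPM in TCRKO and at 141, 127.5, 173 and 176 CPM in Tie2Cre_H2Abf. In the competent libraries the values were 136, 114 and 126 CPM in CD8KO, 50.3, 85.8 and 47.0 CPM in Tie2Cre and 154, 128, 0.821 and 85.9 CPM in WT. The WT_9771 value is 1 count, below the floor of 3. No other library had fewer than 79 counts of Flt4.

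Ccl21a (chromosome 4, 42772860 to 42773993, minus strand) was the most variable member, with an SD of 1.79 on the log2(CPM + 1) scale. Its levels were 1.31, 3.97 and 1.18 CPM in CD4KO, 0, 4.28 and 1.14 CPM in TCRKO, and 1.59, 15.8, 11.9 and 25.6 CPM in Tie2Cre_H2Abf. They were 2.45, 17.9 and 33.5 CPM in CD8KO, 0, 4.88 and 17.6 CPM in Tie2Cre and 0.166, 0, 0 and 18.4 CPM in WT. Values above 10 CPM thus occurred in Tie2Cre_H2Abf, CD8KO, Tie2Cre and WT, each time beside a library of the same background at under 5 CPM. With the copies added, Ccl21a and its family had 40.7 CPM in Tie2Cre_H2Abf_9589, the highest value, and WT_9749 alone stayed at 0.

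Reln (chromosome 5, 21884454 to 22344702, minus strand), a large secreted glycoprotein best known from the brain, ranged from 0 to 5.90 CPM in the deficient libraries and from 0 to 28.7 CPM in the competent ones. The 28.7 CPM were 35 counts in WT_9771, and the next library, CD8KO_9752, had 6.06 CPM. Mmrn1 (chromosome 6, 60924976 to 60989378, plus strand), a secreted protein stored in platelets and endothelium, ranged from 0 to 26.9 CPM in the deficient libraries and from 1.89 to 24.95 CPM in the competent ones. It was highest in CD4KO_9768, CD8KO_9753 and CD8KO_9752. Pdpn (chromosome 4, 143267431 to 143299564, minus strand), a membrane mucin of lymphatic but not blood endothelium, reached more than 3 counts in 6 libraries and was at 0 in 10. Its highest level was 4.64 CPM in CD8KO_9753, and the other 5 of the 6 libraries had 0.662 to 1.85 CPM. Too few counts were present for Pdpn to enter the correlations between members, which required more than 3 counts in at least 10 libraries.

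The remaining 6 genes showed little joint variation over the libraries. Over the 20 libraries the 15 pairs among them had a median Pearson r of 0.071 on the log2(CPM + 1) scale, from -0.74 to 0.64, with 10 pairs positive and 5 negative. The 110625375 pairs of all tested genes had a median of 0.003, with 90% of them between -0.497 and 0.523. An r of at least 0.5 was found for 1 member pair (6.67%), and for 5.86% of all pairs of genes. Within backgrounds, after the background mean of each gene was subtracted, the median r over the 15 pairs was 0.05.

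**Figure D2:**
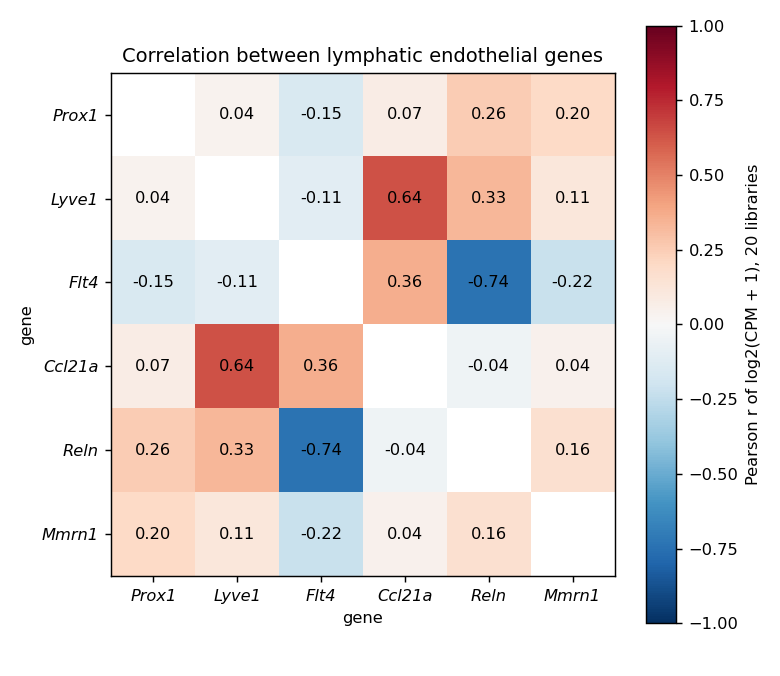
Pearson r of log2(CPM + 1) over 20 libraries for the 15 pairs among the 6 lymphatic endothelial genes with enough counts (rows and columns are genes, red is positive and blue negative). Lyve1 with Ccl21a (0.64) is the only pair above 0.5, and Flt4 with Reln (-0.74) is the lowest.

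Prox1 passed the threshold with none of the other 5 genes. Its r ran from -0.15 with Flt4 to 0.26 with Reln, and it was 0.04 with Lyve1 (Spearman's rho 0.09, n = 20, adjusted p = 0.881 by a permutation test, two-sided, Benjamini-Hochberg over 15 pairs). A direct ratio within each library, which depends on no normalization, showed unequal change. Prox1 made up 0% of the Prox1 and Lyve1 counts combined in Tie2Cre_9502 (0 of 87, exact 95% binomial interval up to 4.15%) and 2.74% in TCRKO_9766 (2 of 73, 0.334% to 9.55%). At the other end, it made up 70.7% in CD4KO_9770 (65 of 92, 60.2% to 79.7%) and 77.1% in WT_9749 (37 of 48, 62.7% to 88.0%). Some libraries of the same background had intervals that did not overlap, in every background but TCRKO, so the ratio of the 2 genes was not the same in these counts. Such unequal ratios also occurred for Ccl21a with Lyve1, the pair with the highest r (0.64). Ccl21a made up 15.3% of their counts in Tie2Cre_H2Abf_9576 (7.22% to 27.0%) and 77.3% in Tie2Cre_H2Abf_9589 (71.3% to 82.6%). An unequal ratio thus does not show that 2 genes do not vary together. The intervals cover counting error only, and amplified reads without molecular identifiers are not independent molecules, so they are too narrow for the spread between libraries.

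**Figure D3:**
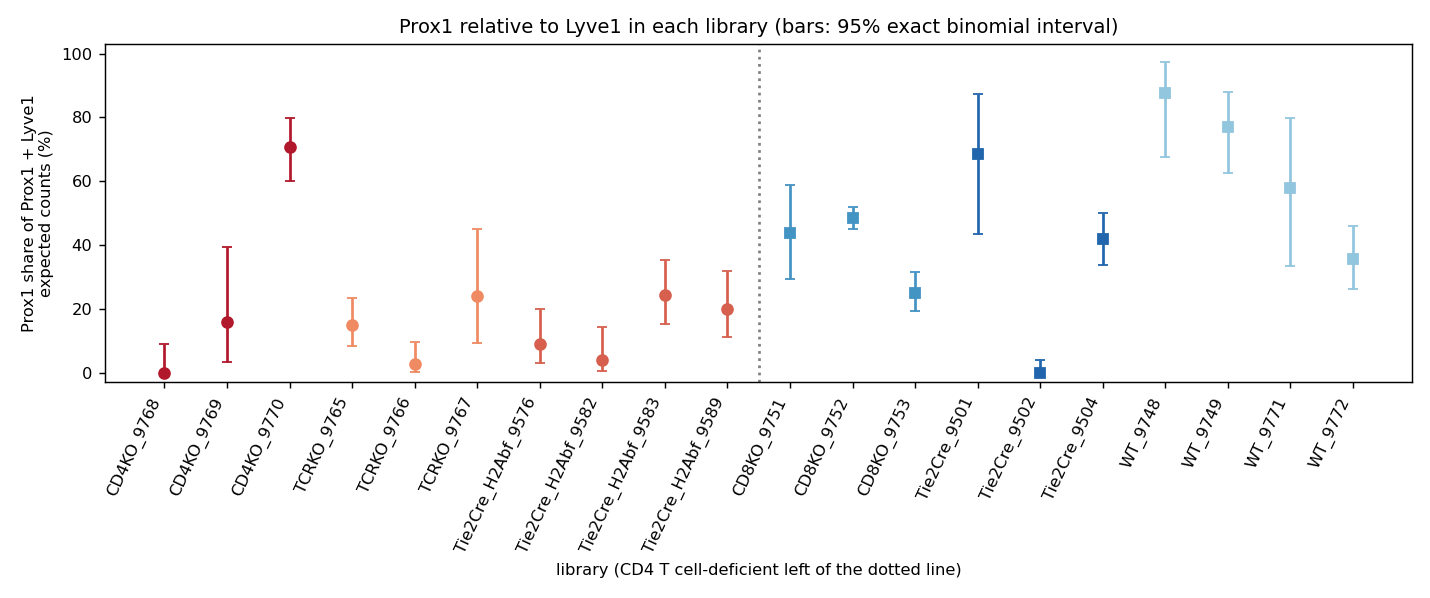
Prox1 as a percentage of the expected counts of Prox1 and Lyve1 together in each library, with exact 95% binomial intervals; libraries left of the dotted line are CD4-deficient. The percentage runs from 0% to 87.5%, and in every background but TCRKO some libraries have intervals that do not overlap.

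Lyve1 and Ccl21a were the only pair with a positive r past the threshold. Their r was 0.64 (permutation p = 0.00212, adjusted p = 0.0159 over 15 pairs, two-sided, n = 20), and Spearman's rho was 0.63 (permutation adjusted p = 0.0517). The r was 0.61 without the 2 libraries farthest from the median of Lyve1 and 0.67 in the 7 libraries numbered 95xx. The call was lost within backgrounds (r = 0.57, adjusted permutation p = 0.409), in the 13 libraries numbered 97xx (r = 0.62, adjusted permutation p = 0.180) and with RLE factors (r = 0.58, adjusted permutation p = 0.0503). With the copies added to Ccl21a it was 0.60 (adjusted permutation p = 0.0395), an alternative chosen after seeing the data. It was also lost without CD8KO_9753, the library highest in both genes (r = 0.59, adjusted permutation p = 0.0613), and without WT_9771 and Tie2Cre_9501 together (r = 0.64, adjusted permutation p = 0.0609). Among all 14875 tested genes, Ccl21a ranked 45th in likeness to Lyve1 by Spearman's rho, so 44 genes followed Lyve1 more closely.

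Flt4 and Reln ran against each other with an r of -0.74 (permutation p = 0.00089, adjusted p = 0.0133), but this rests on WT_9771, which was lowest for Flt4 and highest for Reln. Without that library r was -0.47 (adjusted permutation p = 0.300), without the 2 libraries farthest from the median of Flt4 it was -0.31, and Spearman's rho over all 20 libraries was -0.53 (adjusted permutation p = 0.122). No other pair of the 15 passed the threshold of 0.05 by Pearson's r, and 0 of 15 passed by Spearman's rho.

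The scale matters for the joint picture. On the deposited TPM values, whose total includes genes that do not code for protein, the median r of the 15 pairs was 0.44 and 5 pairs reached 0.5. The correlations of all pairs of genes were not computed on this scale. Whether these values are particular to the members therefore cannot be said. CD8KO_9752 stood apart there: Prox1 had 14.9 TPM in it and at most 1.56 TPM elsewhere, while on the CPM scale it had 16.6 CPM against at most 9.03 CPM. With CPM taken over protein-coding counts alone, the median r was 0.09. The share of protein-coding counts was also highest in CD8KO_9752 (81.0%), and its part in the correlations of TPM was not tested.

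Some libraries were high for several members. CD8KO_9753 was the highest library for 3 of the 7 genes (Lyve1, Pdpn and Ccl21a) and among the highest 3 for Mmrn1 as well. CD8KO_9752 was highest for Prox1 and among the highest 3 for Lyve1, Reln and Mmrn1. Of all tested genes, 2.98% were highest in CD8KO_9753 and 3.05% in CD8KO_9752, and 11.3% and 11.6% were among the highest 3 there. The third CD8KO library, CD8KO_9751, was among the highest 3 for 0 members. Flt4 did not share this pattern, with ranks 10 and 11 of 20 in CD8KO_9753 and CD8KO_9752.

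Flt4 correlated with the blood endothelial list, whose sum includes Pecam1, also found on lymphatic endothelium, and so does not separate blood from lymphatic cells. Its r with the summed level of the 12 blood endothelial genes (led by Cdh5, Pecam1 and Eng) was 0.77 (permutation p = 1e-05, the smallest these resamples can give, adjusted p = 0.00056 over 56 pairs of a member with a list, two-sided, n = 20). Spearman's rho was 0.82, and r was 0.83 within backgrounds, 0.75 without the 2 libraries farthest from the median of Flt4 and 0.74 without WT_9771 and Tie2Cre_9501. Flt4 also passed with the tip cell list, 11 genes of sprouting vessels led by Apln, Nid2 and Cxcr4 (r = 0.70, adjusted permutation p = 0.0185), although not by Spearman's rho (0.58, adjusted permutation p = 0.127), and its r there was 0.58 without WT_9771 and Tie2Cre_9501 (adjusted permutation p = 0.242). Its r of 0.66 with the platelet list (adjusted permutation p = 0.0160) fell to 0.46 without these libraries, and in that list Itgb3, which endothelium also expresses, averaged 145 CPM while Itga2b and Gp1ba averaged 1.29 and 1.09 CPM. Flt4 also correlated with the log2 total count of the library (r = 0.70), and the part of depth was not tested.

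The 3 genes most like Flt4 by Spearman's rho over 20 libraries, among tested genes with a mean of at least 10 CPM, were Lama4 (0.94), a laminin chain of vessel basement membrane, Nucb1 (0.91) and Flt1 (0.89), a Vegf receptor of blood endothelium. Of the members, Ccl21a ranked 3349th for Flt4 among all tested genes, Pdpn 5986th, Prox1 8821st, Mmrn1 9162nd, Lyve1 11616th and Reln 14042nd. The genes most like Prox1 were Mroh1 (0.78), Rbm12 (0.71) and Prr14l (0.71), and those most like Lyve1 were Tax1bp3 (0.74), Tonsl (0.72) and Psma4 (0.71). Ccl21a was most like Strada (0.85), Pmp22 (0.82) and S100a16 (0.80). For Reln the nearest were Rassf1 (0.60), Marc2 (0.59) and Ticam1 (0.58), and for Mmrn1 they were Fnbp4 (0.65), Lmcd1 (0.62) and Cd14 (0.62), a monocyte surface protein.

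**Figure D4:**
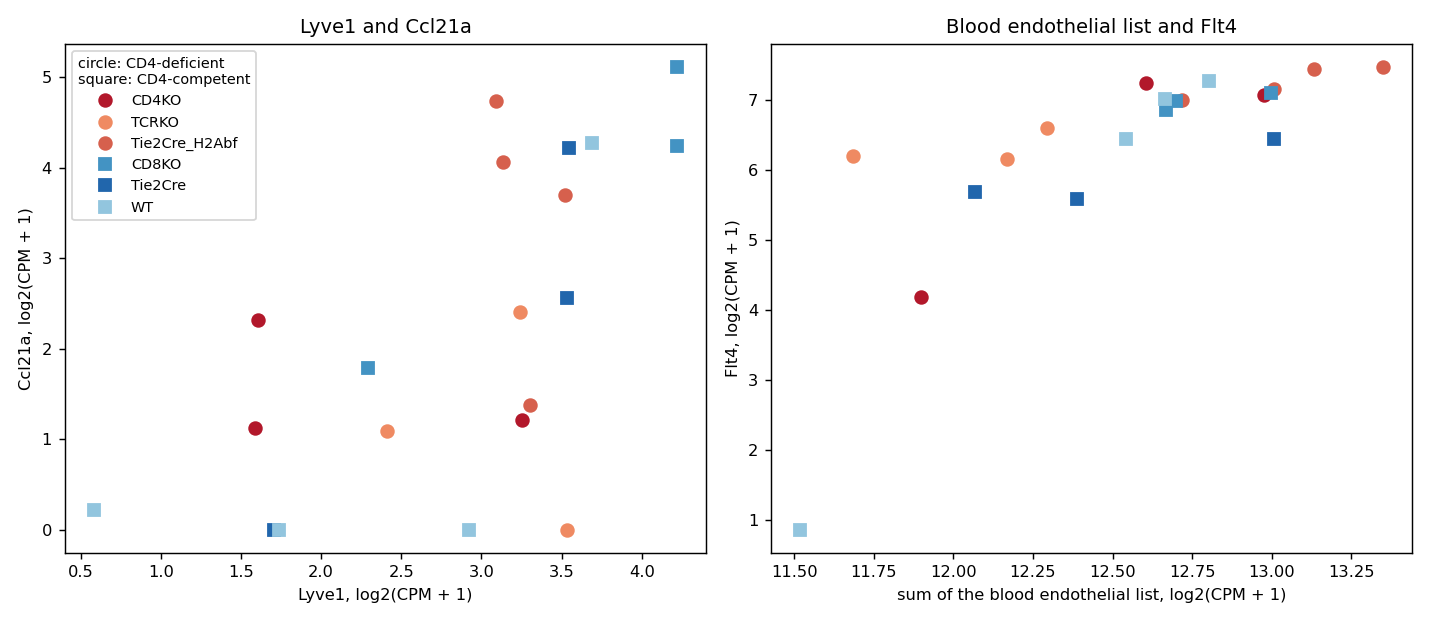
Left, Lyve1 against Ccl21a (both log2(CPM + 1)); right, the summed level of 12 blood endothelial genes against Flt4 (both log2(CPM + 1)). Each point is 1 of 20 libraries, circles are CD4-deficient and squares CD4-competent; r is 0.64 on the left and 0.77 on the right, where WT_9771 lies far below at 0.821 CPM of Flt4.

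For Lyve1, Mmrn1 and Prox1 no list of other cells gave a call. Lyve1 had an r of -0.32 with the 12 macrophage genes, led by Laptm5, Lyz2 and C1qb, and of -0.20 with the 5 perivascular macrophage genes, of which Mrc1 had a median of 4.52 CPM while Timd4 and Cd163 were at 0 in 19 and 16 libraries. The macrophage list summed to 111 to 1004 CPM over the libraries. Mmrn1 had an r of -0.52 with the platelet list (adjusted permutation p = 0.225), whose sum is nearly all Itgb3 and so does not measure platelets. Pdpn had too few counts to be read against the fibroblast list, which was led by Mmp2, Col6a1 and Col6a2 and summed to 0.425 to 95.3 CPM. Prox1 lay between -0.29 and 0.24 with all 8 lists. None of these passed, which does not show that they are unrelated.

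The promoters of Flt4 and Ccl21a, the members with a positive correlation past the threshold for which a sequence was at hand, are shown from RefSeq (build GRCm38.p6, a window across the start), with matches to the ETS motif GGAAG on either strand in capitals. The Flt4 window is chr11:49609429-49609728 on the plus strand, downstream of the GENCODE gene start given above because RefSeq places the start of Flt4 further into the gene. The Ccl21a window is chr4:42773942-42774241 on the minus strand.
Flt4: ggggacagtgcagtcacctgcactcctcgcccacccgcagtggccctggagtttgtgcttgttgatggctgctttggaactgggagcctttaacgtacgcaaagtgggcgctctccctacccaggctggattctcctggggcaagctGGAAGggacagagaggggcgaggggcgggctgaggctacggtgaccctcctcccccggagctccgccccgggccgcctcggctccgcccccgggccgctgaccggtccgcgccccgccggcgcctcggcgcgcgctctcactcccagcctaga
Ccl21a: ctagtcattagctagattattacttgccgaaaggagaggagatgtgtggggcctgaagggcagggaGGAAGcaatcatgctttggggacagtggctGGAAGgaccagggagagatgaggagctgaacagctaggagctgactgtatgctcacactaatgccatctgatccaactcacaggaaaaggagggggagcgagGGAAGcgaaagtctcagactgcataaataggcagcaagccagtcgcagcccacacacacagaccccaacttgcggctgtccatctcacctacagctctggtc
Flt4 held 1 match and Ccl21a 3, and 71.3% of the 32544 promoters in the table held at least 1. The SOX motif AACAAT, searched on both strands, had 0 matches in either window, and 10.6% of all promoters held it. The same holds for the NR2F motif AGGTCA, held by 16.2% of all promoters. It also holds for the GATA motif AGATAA, which was in 11.2% of them. A match is a run of letters and not a site.

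No member passed the adjusted threshold in any comparison between hosts. The comparison by CD4 status, 10 deficient against 10 competent libraries, asks whether the genes differ with the CD4 T cell label of the host. Its model has no term for background, so libraries count as replicates of a status that varied only between the 6 backgrounds. By edgeR's quasi-likelihood test 0 of 7 members were called, and 0% of the 14875 genes tested were. At an unadjusted p under 0.05, 1 of 7 members was found, against 7.27% of all genes. That member was Prox1, which averaged 1.51 ± 1.55 CPM in deficient and 6.52 ± 4.46 CPM in competent libraries (SD, n = 10 each), a log2 fold change of -2.08 ± 0.72 (SE, edgeR p = 0.0071, adjusted p = 0.453). Mmrn1 came next with 5.15 ± 8.11 CPM in deficient and 9.20 ± 7.89 CPM in competent libraries (SD, n = 10 each), a log2 fold change of -0.85 ± 0.72 (edgeR adjusted p = 0.875). Without CD4KO_9768 the Mmrn1 value was -1.74 (edgeR adjusted p = 0.276), and without CD8KO_9753 it was -0.55. With limma-voom and sample weights Mmrn1 had -2.78 (limma-voom adjusted p = 0.192). The median of the 7 members was -0.55 and that of all tested genes -0.11, with 6 members lower and Flt4 alone higher (0.32 ± 0.42). The median of the members was -0.07 without CD8KO_9753, -0.95 without TCRKO_9765 and -0.87 without WT_9771 and Tie2Cre_9501.

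The Prox1 difference kept its direction with each library left out in turn, between -2.48 and -1.71, and its adjusted p stayed between 0.162 and 0.771. It was -2.35 within the 13 libraries numbered 97xx and -2.10 without WT_9771 and Tie2Cre_9501. DESeq2 gave -2.24 (adjusted p = 0.174), and limma-voom with sample weights gave -1.26 (adjusted p = 0.923). Lyve1, in the same libraries, averaged 7.06 ± 3.17 CPM in deficient and 8.41 ± 6.27 CPM in competent hosts (SD, n = 10 each), a log2 fold change of -0.27 ± 0.49 (edgeR adjusted p = 0.959). In bulk libraries, fewer cells of a type and less RNA per cell cannot be told apart. Prox1 also correlated with the share of protein-coding counts (r = 0.57 over 20 libraries), whose part in its difference was not tested.

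The single backgrounds were each set against WT in a model of all 6 groups, in which the 3 contrasts of knockout hosts and that of Tie2Cre share the same WT libraries. In CD4KO against WT, 0 of 7 members were called, as were 0% of all genes, and 0 of 7 had an unadjusted p under 0.05, against 8.58% of all genes. Prox1 was lowest in p there, at 1.73 ± 2.67 CPM in the 3 CD4KO libraries and 6.75 ± 2.39 CPM in the 4 WT libraries (mean ± SD), a log2 fold change of -1.89 ± 1.31 (edgeR adjusted p = 0.702). Without CD4KO_9770, the CD4KO library with 4.81 CPM, the value was -4.83 (edgeR adjusted p = 0.606), and without CD4KO_9768 it was -1.31. Ccl21a followed at -1.16 ± 1.46. Its value was 4.48 without WT_9772, the WT library with 18.4 CPM, and -1.95 without CD4KO_9769.

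In TCRKO against WT, 0 of 7 members and 0.0269% of all genes were called, and 0 of 7 members had an unadjusted p under 0.05, against 8.65% of all genes. Prox1 was lower in all 3 TCRKO libraries (0.238 to 1.85 CPM) than in all 4 WT libraries (3.48 to 9.03 CPM), with a log2 fold change of -2.53 ± 1.37 (edgeR adjusted p = 0.591). Such separation was seen for 1 of 7 members and for 7.67% of all genes. Reln had the next smallest p, with a log2 fold change of -2.16 ± 1.67 (edgeR adjusted p = 0.725). This value rests on WT_9771 and became 1.09 without it.

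In CD8KO against WT, 0 of 7 members and 0% of all genes were called, and 0 of 7 members had an unadjusted p under 0.05, against 10.5% of all genes. The estimates were positive for 6 of 7 members with a median of 1.31, against -0.18 for all genes, and Reln alone was negative (-1.42 ± 1.61). Without CD8KO_9753 the median of the members was 0.59. Lyve1 averaged 13.1 ± 7.94 CPM in the 3 CD8KO libraries and 5.33 ± 5.08 CPM in the 4 WT libraries (mean ± SD), a log2 fold change of 1.31 ± 0.85 (edgeR adjusted p = 0.606). Ccl21a averaged 18.0 ± 15.5 CPM in the 3 CD8KO libraries and 4.63 ± 9.15 CPM in the 4 WT libraries (mean ± SD), a log2 fold change of 1.89 ± 1.39 (edgeR adjusted p = 0.679). With each library left out in turn Lyve1 stayed between 0.91 and 2.29 and Ccl21a between 1.10 and 7.58. Both upper values are without WT_9772, and the 1.10 is without CD8KO_9753.

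Tie2Cre_H2Abf and Tie2Cre differ in the floxed allele, and also in the CD4 label and in the span of their library numbers. The part of each in the differences between these backgrounds was not tested. In Tie2Cre_H2Abf against Tie2Cre, 0 of 7 members and 0.0202% of all genes were called. An unadjusted p under 0.05 was found for 0 of 7 members, against 8.54% of all genes. Flt4 was higher in all 4 Tie2Cre_H2Abf libraries (127.5 to 176 CPM) than in all 3 Tie2Cre libraries (47.0 to 85.8 CPM), with a log2 fold change of 1.34 ± 0.73 (edgeR adjusted p = 0.600). Of the 7 members 1 was separated in this way, and of all genes 9.04%. The blood endothelial list, with which Flt4 correlated, had 12 of 12 estimates positive in the same comparison (median 0.53) and 0 called, and the tip cell list 11 of 11 (median 1.57) with 0 called, while the median of all genes was -0.24. Prox1 was second at -1.36 ± 1.25 (edgeR adjusted p = 0.782), and its value was -0.47 without Tie2Cre_9504.

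In Tie2Cre against WT, 0 of 7 members and 0% of all genes were called, and 0 of 7 members had an unadjusted p under 0.05, against 6.85% of all genes. Reln had a log2 fold change of -1.64 ± 1.65 (edgeR adjusted p = 0.913), which was 1.64 without WT_9771, and Mmrn1 one of -1.06 ± 1.16 (edgeR adjusted p = 0.922), which was -0.45 without WT_9748. DESeq2 and limma-voom with sample weights also called 0 of 7 members in each of the 6 comparisons.

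**Figure D5:**
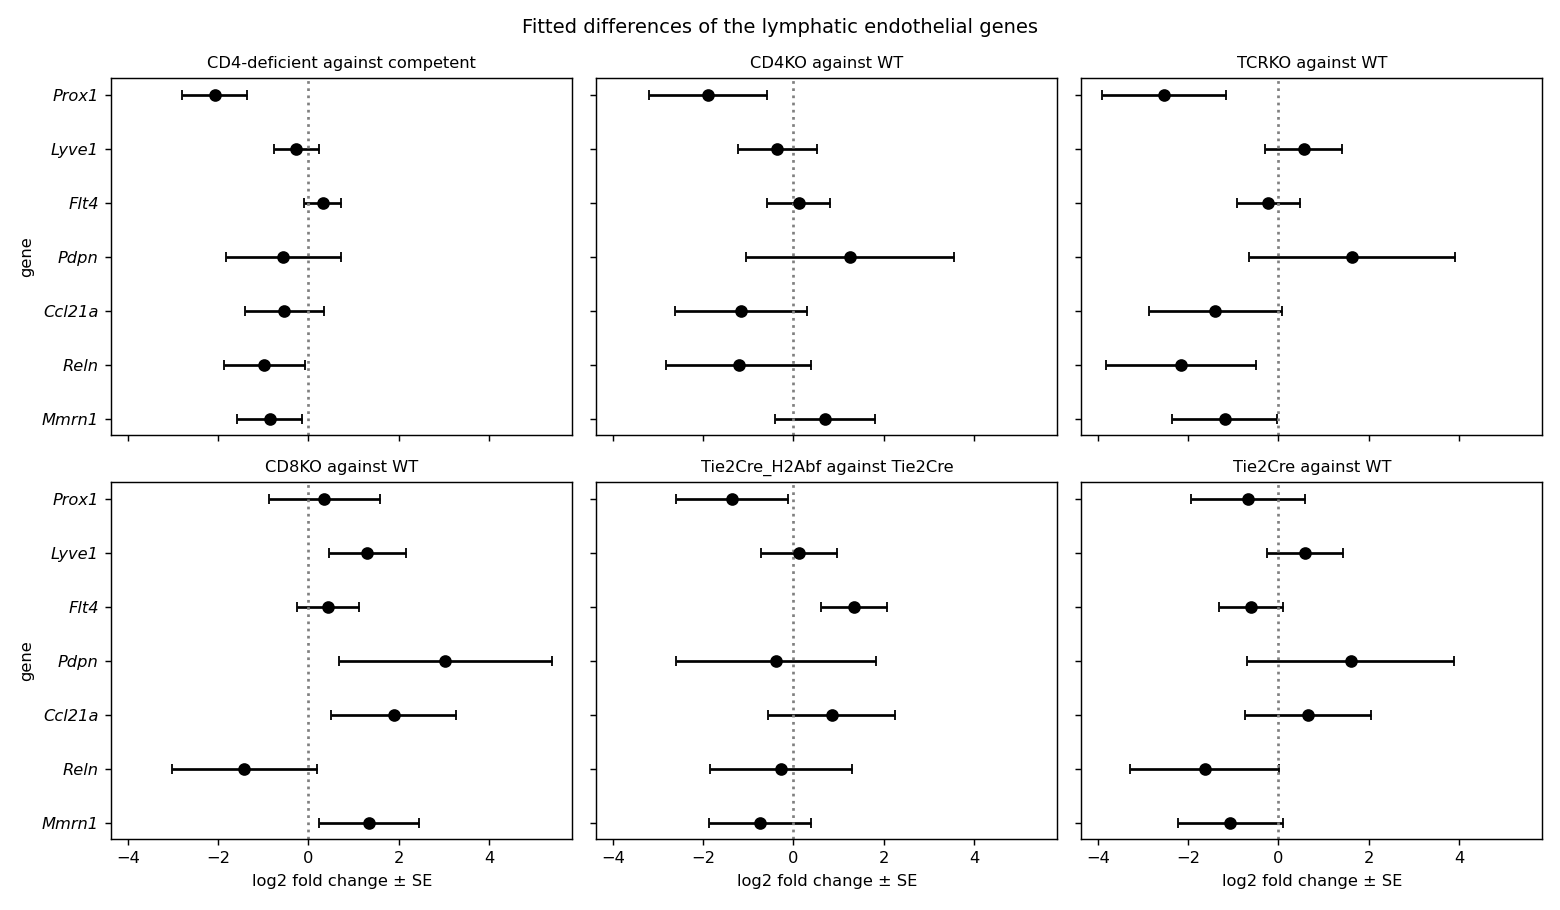
Log2 fold change with its standard error (edgeR) for the 7 lymphatic endothelial genes in the 6 comparisons, with the first-named host over the second. No value passed an adjusted p of 0.05; Prox1 lies at -2.08 ± 0.72 in CD4-deficient against competent hosts, and Pdpn and Reln have the widest errors.

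The other genes of lymphatic development were read as 3 lists. The growth signalling list was led by Tie1 (mean 188 CPM) and Angpt2 (111 CPM), a receptor and a ligand of the angiopoietin system that blood endothelium also uses, and by Nrp2 (71.3 CPM), a co-receptor of Flt4. Vegfc, the ligand of Flt4 (named here for that role and not by its rank), had a median of 4.66 CPM (0 to 15.9), while Vegfd and Adamts3 were at 0 in 15 libraries and Ccbe1 in 12, the last 2 being needed to process Vegfc. Of 12 genes 10 passed the filter, and 0 were called higher or lower in any of the 6 comparisons.

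The transcription factor list was led by Sox18 (mean 69.0 CPM), which acts upstream of Prox1, and Nfatc1 (29.2 CPM), and Nr2f2, a partner of Prox1, averaged 7.26 CPM. Foxc2, a factor of lymphatic valves, had a median of 0.300 CPM, and Tbx1 was at 0 in 12 libraries. Of 10 genes 9 passed the filter and 0 were called in any comparison. In the list of other lymphatic markers, Sned1 (mean 9.69 CPM), Ackr2 (8.02 CPM), a chemokine scavenger, and Nts (4.62 CPM) were highest. Of its 11 genes 8 passed the filter and 0 were called, and genes at 0 in most libraries included Cldn11, Pard6g, Stab2, Marco and Ccl21b.

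Among the lists of other cells, 1 gene passed the threshold in the 6 comparisons. Col6a2, a collagen chain of the fibroblast list, was higher in TCRKO than in WT (log2 fold change 6.80 ± 1.23, edgeR adjusted p = 0.0339). With any single TCRKO library left out, 0 genes were called in this comparison, and Col6a2 was thus lost too. The fibroblast list summed to 37.0 to 95.3 CPM in TCRKO and to 0.425 to 36.9 CPM in WT. Pdpn, which fibroblasts also express, had 1.85, 0 and 0 CPM in TCRKO and 0.662, 0, 0 and 0 CPM in WT, and its part in that difference was not tested.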

How the data were processed

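CD31-positive cells were enriched with microbeads and sorted, their RNA was amplified by the MATQ method and libraries were made with a Nextera XT kit, per the labels' protocols. This kit does not mark strand, so antisense partners cannot be told from a gene. The submitters' processing notes name bcl2fastq 2.17, STAR, RSEM 1.2.28, DESeq2 and the build GRCm38. The STAR version and the gene annotation are not given in the sources used here. The authors deposited 1 RSEM table per library. Its expected counts, estimated by RSEM and not normalized per the file headers, were rounded (4.45% were not whole) and tested. Its TPM values, scaled by the authors for length and depth, were used as levels per length and in an alternative.

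The members and gene lists were chosen with earlier results of these data known. Of 115 list symbols 114 matched an ID. Genes were tested with edgeR 4.0.16 by quasi-likelihood (R 4.3.3, robust, TMM factors, filterByExpr by background), with Benjamini-Hochberg adjustment over 14875 genes and a threshold of 0.05. A model of 2 groups served for CD4 status and a model of 6 backgrounds for the rest, and standard errors come from the F statistic. Libraries of a background varied widely, with a common biological coefficient of variation of 0.995 in the 6-background model. Correlations used log2(CPM + 1) with 100000 permutations, seeded, two-sided, adjusted over 15 pairs of members or 56 pairs of a member with a list.

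The text names all members, the 3 tested genes most like each member averaging 10 CPM or more, the 3 highest genes of each list and any list gene past the threshold, and the 2 members with the smallest p in a comparison. Defining markers at 0 and genes named for their role are outside this rule. Some genes of the lists are not reported here. Simulated data with 14875 genes held changes only in genes averaging 10 CPM or more, a level that Flt4 alone of the members reached. There, 4-fold changes were recovered in 85% of cases for CD4 status and in 25% to 36% for the other comparisons. Changes of 16-fold were recovered in 91% to 100%. The simulated libraries had the spread of the 6-background model and no difference between backgrounds. The fitted 2-group model had a larger common biological coefficient of variation (1.08), so the recovery given for CD4 status may be too high. Recovery at the lower levels of the other members was not tested. Alternatives were RLE factors, no filter, at least 5 CPM in 10 libraries, effective-length offsets, DESeq2 1.42.0, limma-voom (limma 3.58.1) with sample weights, only the groups compared, each library left out, other pseudocounts (0.25 and 5 CPM), TPM and protein-coding CPM.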

Additional observations from a re-analysis of the deposited data

Results flagged for a closer look

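Groups of 4 or 10 libraries were examined for a single value far from the rest, for each of the 7 genes in WT, Tie2Cre_H2Abf and the CD4-deficient and competent libraries, 28 groups in all. Chance alone flags about 1 in 20 such groups, and 6 were found. Flt4 stood at 17.2 CPM in CD4KO_9768, against 70.6 to 176 CPM in the other 9 deficient libraries. Flt4 stood at 0.821 CPM in WT_9771, against 85.9 to 154 CPM in the other 3 WT libraries and 47.0 to 154 CPM in the other 9 competent ones. WT_9771 is 1 of the 2 libraries with the lowest total counts.

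Prox1 was at 0 CPM in Tie2Cre_9502, against 3.03 to 16.6 CPM in the other 9 competent libraries. A floor of 3 counts stood at 0.366 CPM in that library. Ccl21a was at 18.4 CPM in WT_9772, against 0 to 0.166 CPM in the other 3 WT libraries. With its near-identical copies added the value was 21.01 CPM, against 0 to 4.10 CPM. Pdpn was at 0.662 CPM in WT_9748, which is 4 counts, and at 0 in the other 3 WT libraries.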

How the results depend on the processing

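The count of members called stayed at 0 in all 6 comparisons under every alternative that was run and with each library left out. The filter of at least 5 CPM in 10 libraries kept only 2 members, Flt4 and Lyve1, and fits of only the groups compared tested 5 members in TCRKO against WT and 6 in the others. Over all genes, DESeq2 called 4 (CD4 status), 87 (CD4KO against WT), 169 (TCRKO against WT), 73 (CD8KO against WT), 57 (Tie2Cre_H2Abf against Tie2Cre) and 80 (Tie2Cre against WT) genes, where edgeR called 0, 0, 4, 0, 3 and 0. With limma-voom 7 genes were called for CD4 status, 1 for CD8KO against WT and 8 for Tie2Cre_H2Abf against Tie2Cre. Without a filter the count was 10 for CD4KO, 31 for TCRKO and 12 for CD8KO against WT, and 9 for Tie2Cre_H2Abf against Tie2Cre. In TCRKO against WT it was 9 with RLE factors, 14 with the stricter filter, 2 with length offsets, 15 without WT_9771 and Tie2Cre_9501 and 0 with only the groups compared. Leaving out single libraries gave 0 (each TCRKO library, or WT_9748) to 18 (WT_9772). In Tie2Cre_H2Abf against Tie2Cre it was 5 with RLE factors, 10 with the stricter filter, 1 with only the groups compared, and 1 (without Tie2Cre_H2Abf_9582) to 3 with single libraries left out.

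The number of member pairs past the threshold, 2 in the main analysis, was 1 on the TPM scale, with RLE factors, with protein-coding CPM, within backgrounds and in the 97xx libraries alone, and 0 without WT_9771 and Tie2Cre_9501. It was 1 to 2 with each library left out, 1 without CD8KO_9753 or WT_9771. The pair kept with RLE factors, within backgrounds and in the 97xx libraries was Flt4 with Reln, and the pair kept with TPM and protein-coding CPM was Lyve1 with Ccl21a. With the copies of Ccl21a added, 2 pairs passed. The number of members with a list past the threshold, 3 in the main analysis, was 5 with TPM, 1 without WT_9771 and Tie2Cre_9501 and 1 within backgrounds.

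Of the 2 members named in each comparison, these had log2 fold changes, none called, that changed sign. Other members were not followed singly and may also have turned: the median of the members in TCRKO against WT was -1.19 with edgeR and 0.18 with limma-voom. For Ccl21a in CD4KO against WT, limma-voom with sample weights gave 2.18, and leaving out single libraries gave -1.95 to 4.48, the last without WT_9772. For Reln in TCRKO against WT, limma-voom gave 1.4995 and leaving out WT_9771 and Tie2Cre_9501 gave 1.15, with single libraries left out -2.92 to 1.09. For Reln in Tie2Cre against WT the same gave 1.82, 0.88 and -2.29 to 1.64. For Prox1 in Tie2Cre_H2Abf against Tie2Cre limma-voom gave 0.50. The sign of Reln turned without WT_9771, and the cause of the limma-voom changes was not tested.

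No paired analysis was possible because each library number is used once. Depth limits the low members: Prox1, Reln and Ccl21a each had 3 counts or fewer in 5 libraries, and Pdpn in 14. At these counts a joint variation of moderate size was not detectable with certainty, and the intervals cover counting error only.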
